A study of Mus musculus with 8 samples.

Results

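Protein kinase C (PKC) isoforms were followed in R6/2 and wild-type striatum through every array probe set that the platform annotation gives to Prkca, Prkcb, Prkcd, Prkce, Prkch, Prkcq or Prkcz. These 7 genes, of 18193 with a named probe set, were read by 18 probe sets of the 45037 that are not controls. A probe set is a group of short probes that together report 1 transcript region, and its value here is a log2 expression level, so that a difference of 1 is a doubling. The striatum, the forebrain nucleus built mostly of medium spiny projection neurons, was taken from 4 wild-type and 4 R6/2 mice, with 1 array per mouse. All 8 mice were female, 12 weeks (85 days) old, and of mixed C57Bl/6 and CBA background. The R6/2 line models Huntington's disease: its transgene holds the first part of human huntingtin, with a lengthened CAG repeat, behind the human huntingtin promoter. Wild-type mice were age-matched controls without it. Labels number the controls 42, 48, 54 and 63 and the transgenic mice 64, 65, 70 and 78. The question was which PKC transcripts differ between the genotypes.

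PKC enzymes are serine/threonine kinases that carry signals from receptors coupled to the G protein Gq. Phospholipase C, switched on by Gq, splits a membrane lipid into diacylglycerol, which stays in the membrane, and inositol trisphosphate, which releases calcium. Prkca and Prkcb encode isoforms that need both calcium and diacylglycerol, Prkcd, Prkce, Prkch and Prkcq encode isoforms that need diacylglycerol but not calcium, and Prkcz encodes an atypical isoform that needs neither. In striatal neurons this route lies downstream of glutamate, acetylcholine and serotonin receptors and shapes excitability and synaptic strength.

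The promoter sequences of the genes with a probe set that passed the test are shown because they hold annotated starts of these genes. Which start gives the transcripts that the probe sets read was not analysed. Each run covers the 250 bases before an annotated start and the first 10 from it, 260 bases in all, from RefSeq on GRCm38.p6, written 5′ to 3′ on the gene's own strand. Of the 7 genes, 5 had such a window, with 8 windows in all, and none was held for Prkce or Prkch. Capitals mark a match, on either strand, to the cAMP response element TGACGTCA, the GC box GGGCGG, the CCAAT box CCAAT, the TATA box TATAAA or the E-box CAGCTG. No matches to different motifs overlap in the runs shown. These motifs, and the extension of the window past the start, were chosen after the sequences had been seen.
Prkca, chr11:108343879-108344138, minus strand: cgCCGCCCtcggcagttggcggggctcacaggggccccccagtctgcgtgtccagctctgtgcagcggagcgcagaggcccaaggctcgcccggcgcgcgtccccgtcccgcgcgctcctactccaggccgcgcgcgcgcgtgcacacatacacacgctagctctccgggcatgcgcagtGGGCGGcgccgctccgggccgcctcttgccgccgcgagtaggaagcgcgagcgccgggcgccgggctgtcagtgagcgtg
Prkcb, chr7:122288875-122289134, plus strand: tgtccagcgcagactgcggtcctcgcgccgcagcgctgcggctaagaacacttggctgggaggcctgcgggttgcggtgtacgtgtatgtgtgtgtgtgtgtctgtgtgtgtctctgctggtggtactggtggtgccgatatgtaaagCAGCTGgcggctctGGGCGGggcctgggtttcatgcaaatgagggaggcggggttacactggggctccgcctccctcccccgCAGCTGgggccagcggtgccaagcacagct
Prkcq, chr2:11172132-11172391, plus strand: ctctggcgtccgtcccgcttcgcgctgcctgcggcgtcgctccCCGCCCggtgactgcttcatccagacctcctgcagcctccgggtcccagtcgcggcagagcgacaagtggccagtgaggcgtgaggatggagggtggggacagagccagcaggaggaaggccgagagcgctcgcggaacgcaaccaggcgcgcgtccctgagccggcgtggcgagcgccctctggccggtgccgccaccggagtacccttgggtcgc
Prkcz, start of the long transcript, chr4:155361419-155361678, minus strand: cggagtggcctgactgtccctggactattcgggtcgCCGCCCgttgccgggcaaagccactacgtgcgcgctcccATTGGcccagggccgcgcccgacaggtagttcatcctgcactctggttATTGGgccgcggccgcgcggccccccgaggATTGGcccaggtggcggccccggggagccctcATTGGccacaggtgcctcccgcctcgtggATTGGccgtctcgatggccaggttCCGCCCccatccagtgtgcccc
Prkcz, an internal start, chr4:155345780-155346039, minus strand: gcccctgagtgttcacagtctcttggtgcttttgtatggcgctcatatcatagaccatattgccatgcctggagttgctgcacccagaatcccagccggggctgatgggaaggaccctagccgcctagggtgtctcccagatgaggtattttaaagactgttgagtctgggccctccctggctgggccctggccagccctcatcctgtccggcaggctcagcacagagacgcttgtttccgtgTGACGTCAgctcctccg

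The Prkcb window held 2 E-boxes, which began 102 and 20 bases before the start, and 1 GC box. The E-box letters stood in 13.53% of the 32851 windows of this length in the reference table, and the GC box letters in 33.45%. The Prkca window held 2 GC boxes and the Prkcq window 1. The Prkcq window lies wholly inside the gene as positioned here, which begins at 11171905, so its annotated start is internal too. In the first Prkcz window there were 5 CCAAT boxes and 2 GC boxes, where CCAAT letters stood in 34.64% of all windows. The internal Prkcz start shown held neither, but had 1 cAMP response element, which began 7 bases before the start and ended on the start base, a motif present in 1.67% of all windows. A second internal Prkcz window, chr4:155344740-155344999, is not printed and held 2 GC boxes and no cAMP response element, so that the run shown is the one with the rarer motif. TATAAA stood in 12.66% of all windows and in none of the runs shown. A match is a description of letters and not evidence of a bound factor.

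Prkcb was lower in R6/2 striatum by all 3 of its probe sets, Prkca and Prkcz were lower by 1 probe set each, and Prkcq was higher by its only one. No probe set of Prkcd, Prkce or Prkch passed the test over probe sets. In the limma fit over all probe sets, with p-values adjusted by Benjamini-Hochberg over all 45037, 5 of the 18 PKC probe sets were lower and 1 was higher at an adjusted p under 0.05, and 12 did not pass. Over all probe sets 10.1% passed, 4.59% lower and 5.54% higher. Of the 5 lower PKC probe sets, 3 read the same gene, Prkcb, and the others read Prkca and Prkcz. The difference was negative for 16 of the 18 and positive for 2, with a median of -0.34 on the log2 scale against -0.017 over all probe sets. These 18 read only 7 genes and so are not independent, and the share of all probe sets with a negative difference was not counted. All 4 R6/2 arrays lay below all 4 wild-type arrays for 5 PKC probe sets, against 7.07% of all probe sets, and all above for 0, against 9.05%. Those 5 were not the same set as the 5 called: 1 called Prkcb probe set overlapped between the groups, and 1 Prkce probe set did not overlap but missed the threshold. Counted as 1 value per gene, by the probe set with the highest mean, Prkca, Prkcb and Prkce passed lower and Prkcq higher in a fit over the 18193 genes, where 15.3% of all genes passed, 6.19% lower and 9.09% higher. With each gene's probe sets averaged, in place of the brightest, Prkce did not pass (-0.26, adjusted p = 0.0650). Leaving out single arrays moved the count of PKC probe sets called lower to between 2 and 6. It was 2 on dropping wild-type mouse 48, wild-type mouse 54, R6/2 mouse 70 or R6/2 mouse 78, and 3 on dropping R6/2 mouse 65. The count called higher stayed at 1 without wild-type mouse 63 and was 0 without any other single mouse.

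**Figure D1:**
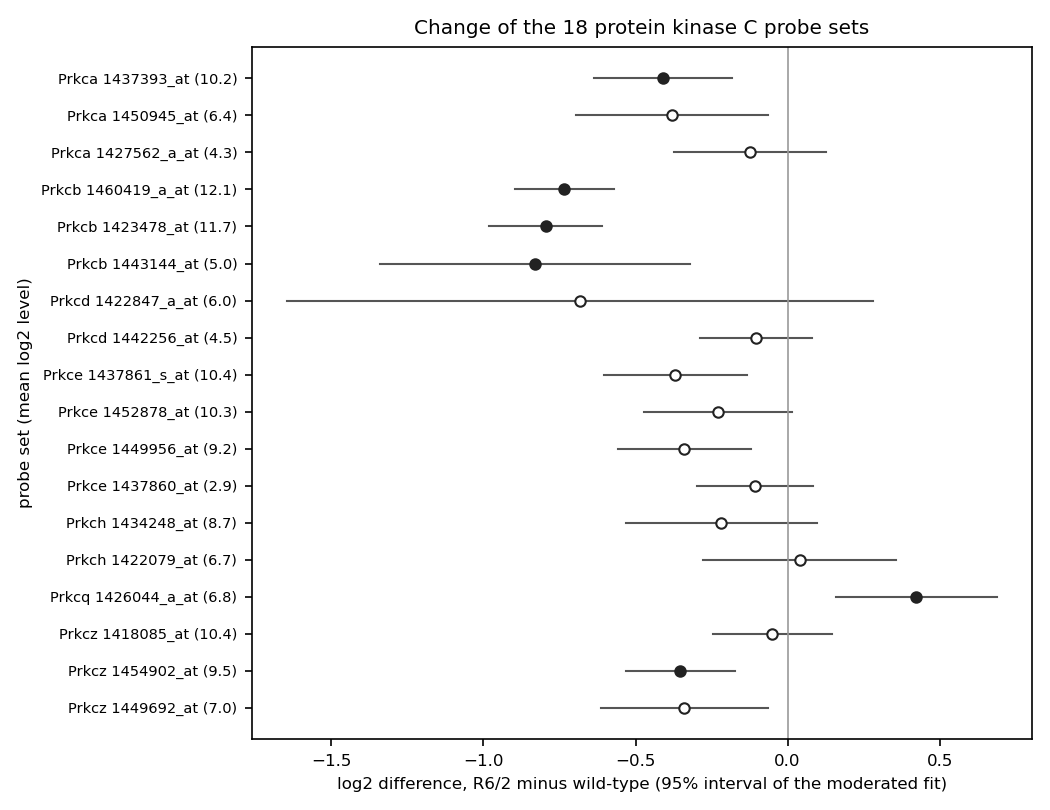
Log2 difference, R6/2 minus wild-type, of each of the 18 PKC probe sets, with its 95% interval from the limma fit over all probe sets and the mean log2 level in brackets after its name. Filled points passed an adjusted p of 0.05 (5 lower, 1 higher). The 3 Prkcb probe sets lie between -0.83 and -0.73, and Prkcd has the widest interval.

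Some markers of cell types also differed between the groups. Of 8 measured medium spiny neuron markers, 7 were lower in R6/2, and their mean level was 11.41 to 11.74 in wild-type and 10.69 to 10.80 in R6/2 arrays. Of 11 cortical projection neuron markers, 3 were lower and 8 did not pass, with overlapping mean levels of 6.49 to 7.50 in wild-type and 6.01 to 6.98 in R6/2 arrays. Of 7 astrocyte markers 3 were lower and none higher, and their mean level did not overlap, at 9.88 to 10.24 in wild-type and 9.70 to 9.79 in R6/2 arrays. Of 6 endothelial markers 3 were lower and none higher, again without overlap, at 6.50 to 6.74 and 6.24 to 6.39. In bulk tissue, fewer cells of a type and less RNA per cell cannot be told apart. The part of the medium spiny neuron, astrocyte and endothelial markers in the PKC results was not tested.

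Prkcb, which lies on chromosome 7 from 122289104 to 122634402, encodes the calcium-dependent isoform that is abundant in forebrain neurons. Probe set 1460419_a_at read 12.44, 12.40, 12.53 and 12.31 in wild-type mice 42, 48, 54 and 63, and 11.76, 11.64, 11.64 and 11.70 in R6/2 mice 64, 65, 70 and 78. Every R6/2 array lay below every wild-type array. The mean fell from 12.42 ± 0.092 to 11.68 ± 0.057 (SD, n = 4 each), a difference of -0.73 ± 0.073 (log2, SE), or 1.66-fold lower, with an adjusted p of 0.000543 in limma and a 95% interval of -0.90 to -0.57. The second bright probe set, 1423478_at, read 12.14, 12.15, 12.23 and 11.91 in the wild-type mice and 11.37, 11.32, 11.22 and 11.34 in the R6/2 mice, again without overlap. It was 1.74-fold lower (-0.80 ± 0.084, log2, SE, limma adjusted p = 0.000733).

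The third Prkcb probe set, 1443144_at, lay far down the intensity range and was noisier. It read 5.95, 5.69, 5.39 and 4.76 in the wild-type mice and 4.30, 4.48, 4.86 and 4.82 in the R6/2 mice, so that wild-type mouse 63 sat below R6/2 mice 70 and 78. Its difference was -0.83 ± 0.23 (log2, SE, limma adjusted p = 0.0469). This call was lost without wild-type mouse 42 (adjusted p = 0.0888), 48 (0.122) or 54 (0.0844) and without R6/2 mouse 64 (0.123), 65 (0.112), 70 (0.0712) or 78 (0.0730), and the adjusted p was 0.00673 without wild-type mouse 63. It was also lost after quantile normalization (adjusted p = 0.0541), after median centring (0.0506) and with the cortical marker score as a covariate (0.198). The change of 1460419_a_at differed from that of 1423478_at by 0.062 and from that of 1443144_at by 0.097, and neither difference passed an exact permutation test (p = 0.171 and 0.714, 2-sided, 70 arrangements).

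The 2 bright Prkcb probe sets passed under every alternative in which they were fitted, including each array left out. With the cortical marker score, the array's mean over that list minus the wild-type mean, as a covariate they differed by -0.76 and -0.85 (limma adjusted p = 0.0103 for each). The score was itself lower in R6/2, at -0.65 to 0.36 in wild-type and -1.13 to -0.16 in R6/2 arrays. Covariate and genotype therefore partly overlap, and why a call was lost with the covariate was not tested.

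Prkca, on chromosome 11 from 107933387 to 108343888, encodes the widely expressed calcium-dependent isoform. Its brightest probe set, 1437393_at, read 10.36, 10.57, 10.55 and 10.29 in wild-type mice 42, 48, 54 and 63, and 10.21, 9.83, 10.10 and 9.98 in R6/2 mice 64, 65, 70 and 78. The groups did not overlap, though wild-type mouse 63 and R6/2 mouse 64 lay close. The level fell from 10.44 ± 0.14 to 10.03 ± 0.16 (SD, n = 4 each), a 1.33-fold lower value (-0.41 ± 0.10, log2, SE, limma adjusted p = 0.0323, 95% interval -0.64 to -0.18). The call was lost without wild-type mouse 48 (adjusted p = 0.0916) or 54 (0.0792), without R6/2 mouse 65 (0.0737), 70 (0.0637) or 78 (0.0819), and with the cortical marker score as a covariate (-0.36, adjusted p = 0.212).

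The other Prkca probe sets did not pass. Probe set 1450945_at read 6.38 to 6.85 in wild-type and 5.89 to 6.43 in R6/2 arrays, a difference of -0.38 ± 0.14 (log2, SE, limma adjusted p = 0.124), close in size to that of the brightest. Probe set 1427562_a_at, dimmer again, read 4.14 to 4.53 and 3.95 to 4.35, and differed by -0.12 ± 0.11 (adjusted p = 0.550).

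**Figure D2:**
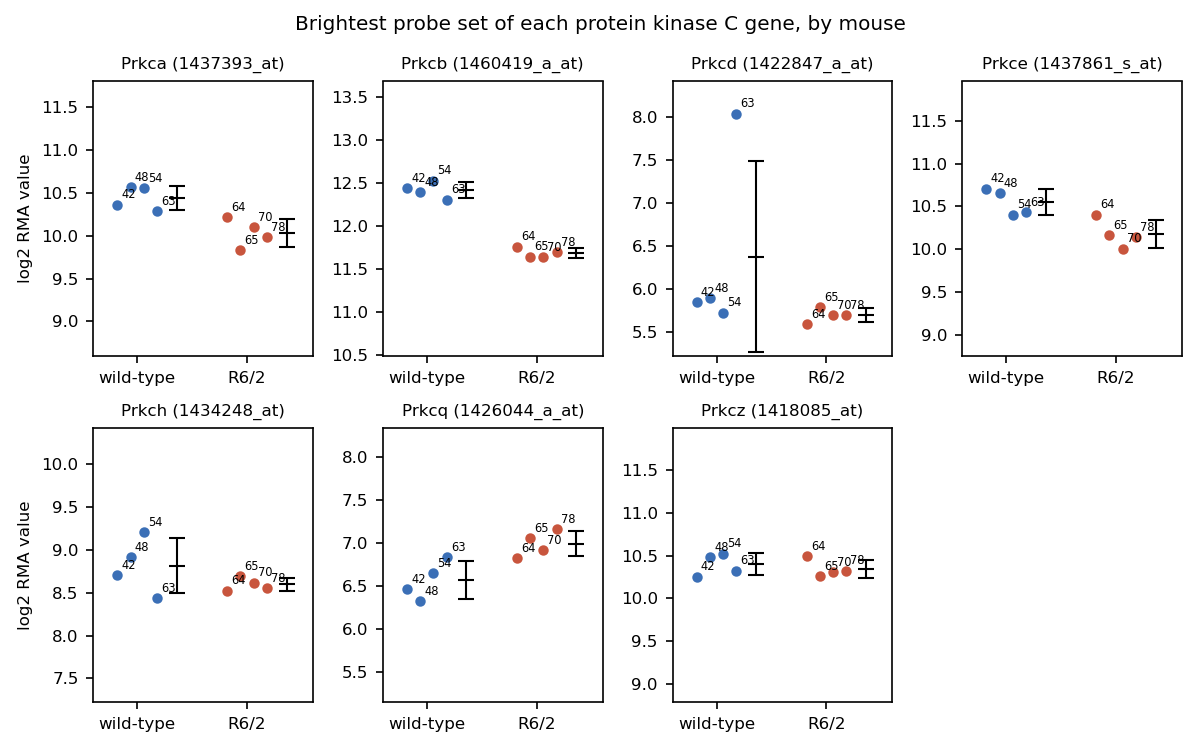
Log2 level of the brightest probe set of each PKC gene in each mouse (blue, wild-type; red, R6/2; mouse numbers beside the points), with the mean and SD of 4 mice at the side, on axes of equal span. All R6/2 mice lie below all wild-type mice for Prkca and Prkcb, and wild-type mouse 63 stands at 8.04 for Prkcd.

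Prkce, on chromosome 17 from 86167785 to 86657919, encodes a diacylglycerol-dependent isoform found at presynaptic sites. Probe set 1437861_s_at read 10.71, 10.66, 10.41 and 10.43 in wild-type mice 42, 48, 54 and 63, and 10.41, 10.17, 10.01 and 10.15 in R6/2 mice 64, 65, 70 and 78. Wild-type mouse 54 and R6/2 mouse 64 met at 10.41. The difference was -0.37 ± 0.11 (log2, SE, 95% interval -0.60 to -0.13) and missed the threshold over probe sets (limma adjusted p = 0.0528). It passed over genes (limma adjusted p = 0.0377), a fit in which a larger share of features passed. The mean of the Prkce probe sets did not pass over genes (-0.26, adjusted p = 0.0650). Over probe sets 1437861_s_at passed without R6/2 mouse 64 (adjusted p = 0.0363), and with the cortical marker score as a covariate it differed by -0.22 (adjusted p = 0.432).

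Probe set 1449956_at of Prkce read 9.48, 9.56, 9.32 and 9.32 in the wild-type mice and 9.29, 8.93, 8.97 and 9.12 in the R6/2 mice, with no overlap. It differed by -0.34 ± 0.099 (log2, SE, limma adjusted p = 0.0565), and by -0.41 without R6/2 mouse 64 (adjusted p = 0.0371). It passed too after quantile normalization (adjusted p = 0.0391), without dim probe sets (0.0449), with trended robust moderation (0.0398) and with array weights (0.0403). The groups overlapped for 1452878_at, which read 10.26 to 10.74 in wild-type and 10.08 to 10.31 in R6/2 arrays (-0.23 ± 0.11, adjusted p = 0.228). The fourth probe set, 1437860_at, read a mean of 2.95 in wild-type and 2.84 in R6/2 mice. These values lie within the 2.77 to 3.67 spanned by 9 probe sets of Y-linked genes in these female mice, so it gave no level above background.

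Prkcq, on chromosome 2 from 11171905 to 11301226, encodes the isoform best known from T-cell receptor signalling. It was the only gene of the 7 with a probe set called higher. Its single probe set, 1426044_a_at, read 6.46, 6.32, 6.65 and 6.83 in wild-type mice 42, 48, 54 and 63, and 6.83, 7.06, 6.92 and 7.16 in R6/2 mice 64, 65, 70 and 78. Wild-type mouse 63 and R6/2 mouse 64 met at 6.83, and the other R6/2 mice lay above all wild-type mice. The mean rose from 6.57 ± 0.22 to 6.99 ± 0.15 (SD, n = 4 each), or 1.34-fold (0.42 ± 0.12, log2, SE, 95% interval 0.16 to 0.69), at a limma adjusted p of 0.0499, just inside the threshold. The call was lost without wild-type mouse 42 (adjusted p = 0.0964), 48 (0.124) or 54 (0.0756) and without R6/2 mouse 64 (0.0603), 65 (0.113), 70 (0.0900) or 78 (0.126), after quantile normalization (0.39, adjusted p = 0.0783) and with the cortical covariate (0.30, adjusted p = 0.363). Of 6 measured T-cell markers, 1 was lower, none was higher, and their mean level was 4.93 to 5.13 in wild-type and 4.78 to 4.89 in R6/2 arrays. The lower one, Cd4, named after its value was seen, differed by -1.33 (limma adjusted p = 0.000539 over genes). The other 5 did not pass, and the median difference of the list was 0.0069.

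Prkch, on chromosome 12 from 73584796 to 73778185, encodes the diacylglycerol-dependent isoform known from epithelia, and no difference passed the test. Probe set 1434248_at read 8.70, 8.92, 9.20 and 8.44 in the wild-type mice and 8.53, 8.70, 8.62 and 8.55 in the R6/2 mice, all within the wild-type range (-0.22 ± 0.14, log2, SE, limma adjusted p = 0.384, 95% interval -0.53 to 0.097). Probe set 1422079_at read 6.34 to 7.04 in wild-type and 6.60 to 6.86 in R6/2 arrays (0.040 ± 0.14, adjusted p = 0.896).

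Prkcd, on chromosome 14 from 30595353 to 30626414, encodes a diacylglycerol-dependent isoform that is strongly expressed in the thalamus. Probe set 1422847_a_at read 5.84, 5.89 and 5.72 in wild-type mice 42, 48 and 54 but 8.04 in wild-type mouse 63, and 5.59, 5.79, 5.69 and 5.70 in the R6/2 mice. That 1 array gave the wild-type group an SD of 1.11 against 0.080 in R6/2. The difference was -0.68 ± 0.43 (log2, SE, limma adjusted p = 0.373, 95% interval -1.65 to 0.28) and was -0.13 without wild-type mouse 63 (adjusted p = 0.383). The dimmer probe set 1442256_at read 4.43 to 4.64 and 4.30 to 4.55 (-0.10 ± 0.083, adjusted p = 0.491), with wild-type mouse 63 again highest.

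In the same array, 10 of 14 thalamic neuron markers had their highest value of all 8 mice, and 3 of them exceeded the other 7 mice by more than 1 log2 unit. The glutamate transporter gene Slc17a6 read 7.42 in mouse 63 and 4.41 to 5.18 in the others. Shox2, a transcription factor gene, read 6.18 against 3.88 to 4.58, and Tcf7l2, which encodes a thalamic transcription factor, read 6.06 against 4.51 to 4.96. The marker gene Gbx2 read 3.75 in mouse 63, near the Y-linked range. Mean level of the list was 5.63 to 6.53 in wild-type arrays, with mouse 63 highest, and 5.56 to 5.71 in R6/2 arrays, where 3 markers were lower and 11 did not pass. Mouse 63 stood apart from the other wild-type mice by other marker scores too. Its medium spiny neuron score was the lowest (-0.22 against 0.037 to 0.10). Its choroid plexus (1.00 against -0.83 to 0.16), oligodendrocyte (0.23 against -0.18 to -0.022) and astrocyte (0.21 against -0.15 to 0.022) scores were the highest. The part of RNA from any of these cell types in the Prkcd value was not tested. Markers named here were chosen from the thalamic list after their values had been seen.

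**Figure D3:**
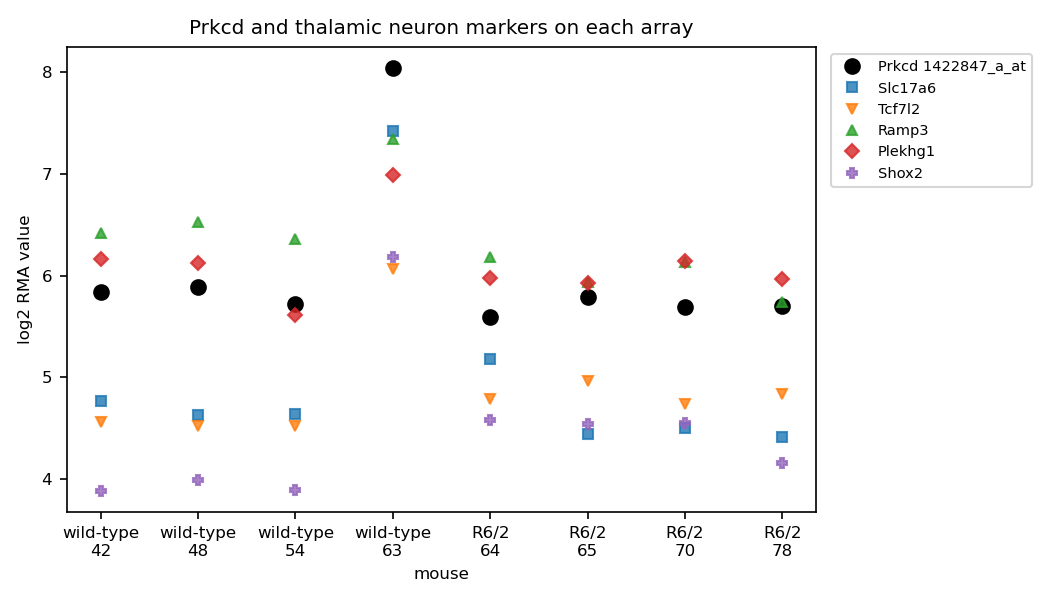
Log2 level of Prkcd (black circles) and of 5 of the 14 thalamic markers, chosen after their values were seen, in each mouse. Wild-type mouse 63 has the highest value of Prkcd and of each marker drawn, with Prkcd at 8.04 and Slc17a6 at 7.42.

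Prkcz, on chromosome 4 from 155260118 to 155361428, encodes the atypical isoform and, from an internal start, a shorter brain transcript for the free kinase domain named PKMzeta. Which of its 3 annotated windows gives that transcript was not analysed here. Of its 3 probe sets 1 passed the test. Probe set 1454902_at read 9.57, 9.71, 9.75 and 9.50 in wild-type mice 42, 48, 54 and 63, and 9.37, 9.31, 9.22 and 9.21 in R6/2 mice 64, 65, 70 and 78. No value overlapped, and the level fell 1.28-fold (-0.35 ± 0.081, log2, SE, limma adjusted p = 0.0231, 95% interval -0.53 to -0.17). The call was lost without wild-type mouse 48 (adjusted p = 0.0687) or 54 (0.0571), without R6/2 mouse 70 (0.0685) or 78 (0.0652), and with the cortical covariate (-0.40, adjusted p = 0.0889).

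The brightest Prkcz probe set, 1418085_at, read 10.25, 10.49, 10.52 and 10.33 in the wild-type mice and 10.50, 10.26, 10.31 and 10.33 in the R6/2 mice, with the groups fully mixed. Its difference was -0.050 ± 0.087 (log2, SE, limma adjusted p = 0.778, 95% interval -0.24 to 0.14). Probe set 1449692_at read 6.90 to 7.52 and 6.76 to 7.04 (-0.34 ± 0.12, adjusted p = 0.115), and passed with array weights (-0.38, adjusted p = 0.0491) and on dropping wild-type mouse 42 (-0.44, adjusted p = 0.0347). Within each array, 1418085_at minus 1454902_at was 0.77 ± 0.059 in wild-type and 1.07 ± 0.085 in R6/2 mice (SD, n = 4 each). That unequal change of 0.30 had an exact permutation p of 0.0286 (2-sided), the smallest that 70 arrangements allow, and 0.157 after adjustment over the 11 within-gene pairs compared. None of these 11 pairs passed after adjustment, and 1 other, Prkch 1434248_at minus 1422079_at (-0.26), also had the smallest possible p. Which transcript each Prkcz probe set reads was not analysed here.

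Whether the isoforms changed unequally was tested on the within-array difference between the brightest probe set of Prkcb and that of each other gene, 6 pairs in all. By brightest probe set, Prkcb had the largest fall of the PKC genes in these same data, and all 6 pairs share it. The 6 tests are therefore not independent of each other or of the Prkcb result, and add no separate support for it. The fall of Prkcb was larger than the change of Prkca by 0.32, of Prkce by 0.36, of Prkch by 0.52 and of Prkcz by 0.68 (differences of -0.32, -0.36, -0.52 and -0.68, log2). Against Prkcq, which rose, the difference of -1.16 holds both the fall of Prkcb and that rise. All 5 differences had an exact permutation p of 0.0286, adjusted to 0.0343. The Prkcz pair rests on the probe set of that gene that differed least (-0.050), whereas the other Prkcz probe sets differed by -0.35 and -0.34 and the mean of all 3 by -0.25, and pairs with these were not tested. Against Prkcd the difference was -0.051 (p = 1), and without wild-type mouse 63 it was -0.64 (exact permutation p adjusted to 0.0343). Every array left out brings the number of arrangements down to 35, at which an adjusted p of 0.0343 could still be reached. The Prkce, Prkcq and Prkcz pairs then missed the threshold when wild-type mouse 54, R6/2 mouse 64 or R6/2 mouse 70 was dropped, at adjusted exact permutation p of 0.0571 or 0.0686. Prkch missed it without these or R6/2 mouse 65 or 78, and Prkca without these or wild-type mouse 42, 48 or 63, at the same p values. All 5 differences kept their sign whichever array was left out.

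Genes whose pattern over the 8 arrays lay nearest to a PKC gene were found by the mean absolute difference between centred log2 values, among 9095 genes with a mean above the median. Nearest to Prkcb were Cx3cl1, which encodes the neuronal chemokine fractalkine (0.046), the sortilin-family receptor gene Sorcs2 (0.054) and Ctxn1 (0.057). Map3k12 (0.048), Erc2 (0.049) and Rhobtb2 (0.049) came nearest to Prkca, where Erc2 encodes a presynaptic active-zone protein. Closest to Prkce were Rnf157 (0.037), Fn1 (0.043) and Klf13 (0.045), and to Prkcq Cers2 (0.054), Xaf1 (0.065) and Flvcr1 (0.074). For Prkcd, A330076H08Rik (0.26), Pvalb (0.31) and Synm (0.34) came closest, and each was highest in wild-type mouse 63, Pvalb at 9.74. These distances are larger, but the measure is not scaled and grows with the spread of a gene's values, which was wide for Prkcd. Their Pearson correlations with Prkcd were 0.931, 0.868 and 0.881, against 0.943 to 0.991 for the genes named for the other PKC genes.

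The genes around PKC in its pathway were counted in the fit over genes, where 6.19% of all genes were lower and 9.09% higher and the median difference was -0.0034. None of the 6 measured family members outside the set passed (8 were listed, median -0.11). Prkci, which encodes the other atypical isoform and was the brightest of them, differed by -0.24 (limma adjusted p = 0.160), and its second probe set by 0.12. Upstream, 1 of 9 measured Gq-coupled receptor and G protein genes was lower and 1 higher, of 13 listed, with a median of -0.052. The glutamate receptor gene Grm5 fell by 0.39 on the log2 scale by its brightest probe set (adjusted p = 0.0206). That call was lost without wild-type mouse 48 (adjusted p = 0.0607) or 54 (0.0511), or R6/2 mouse 64 (0.0509) or 70 (0.0643). The second Grm5 probe set differed by -0.80 (limma adjusted p = 0.00306 over probe sets). It read 10.32 to 10.70 in wild-type and 9.54 to 9.98 in R6/2 arrays, without overlap. The mean of all Grm5 probe sets differed by -0.60 over genes (limma adjusted p = 0.00193). The serotonin receptor gene Htr2c rose by 0.75 (adjusted p = 0.00316). Htr2c is also a choroid plexus gene, and the 7 choroid plexus markers, none of them called, had a mean level of 6.00 to 7.82 in wild-type and 5.90 to 8.41 in R6/2 arrays. Their part in the Htr2c value was not tested.

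Diacylglycerol is made by phospholipase C and removed by lipases and kinases. Of 12 phospholipase C genes 2 were lower and none higher (median -0.029): Plch2 fell by 0.59 (limma adjusted p = 0.00372) and Plcb1, which encodes the main Gq effector of forebrain neurons, fell by 0.54 (adjusted p = 0.00862). With the cortical covariate both missed the threshold (-0.51, adjusted p = 0.0538, and -0.47, adjusted p = 0.0914). Among 9 measured diacylglycerol lipase and kinase genes, of 11 listed, 3 were lower and 2 higher, with a median of 0.074. Dagla, which encodes the lipase that turns diacylglycerol into the endocannabinoid 2-AG, fell by 0.74 (adjusted p = 0.00128), and the diacylglycerol kinase genes Dgkz (-0.87, adjusted p = 0.00182) and Dgkh (-0.31, adjusted p = 0.0377) fell too. In the other direction the kinase genes Dgka and Dgke rose, by 0.64 (adjusted p = 0.00149) and 0.53 (adjusted p = 0.00577).

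Proteins that anchor, activate or switch off PKC were measured by 15 genes of 17 listed, of which 4 were lower and 2 higher (median -0.11). Pdpk1, which encodes the kinase that primes PKC, fell by 0.51 (limma adjusted p = 0.00332), and Wwc1, which encodes the PKC-zeta-binding protein KIBRA, fell by 0.53 (adjusted p = 0.00336). The anchor genes Akap5 (-0.62) and Akap9 (-0.48) fell as well. Phlpp2, which encodes a phosphatase that removes the activating phosphate of PKC, rose by 0.50 (adjusted p = 0.00509), and the PKC-zeta scaffold gene Sqstm1 rose by 0.46. With the cortical covariate Wwc1 missed the threshold (-0.39, adjusted p = 0.0553).

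Diacylglycerol also binds proteins other than PKC. Of 9 such genes 4 were lower and none higher, with a median of -0.23. Rasgrp2, which encodes a calcium- and diacylglycerol-driven Rap activator of striatal neurons, fell by 1.47 (log2, limma adjusted p = 7.97e-05). The vesicle-priming gene Unc13a fell by 0.93 (adjusted p = 0.00123), the Ras activator gene Rasgrp1 fell by 0.56 (adjusted p = 0.00387) and Chn1 fell by 0.46. Other probe sets were split: those of Rasgrp2 differed by -1.19, -0.099 and 0.065, and those of Rasgrp1 by -0.34, 0.034 and 0.14, and the mean over all Rasgrp1 probe sets did not pass (-0.18, adjusted p = 0.423). Of 13 measured PKC substrate genes, of 14 listed, 1 was lower and none higher (median -0.032). That gene, Nrgn, which encodes the calmodulin-binding protein neurogranin, fell by 0.76 (adjusted p = 0.0250). The call was lost without wild-type mouse 42 (adjusted p = 0.0525) or 48 (0.0723), without R6/2 mouse 65 (0.0524), 70 (0.0727) or 78 (0.0667), with trended robust moderation (0.0518), and with the cortical covariate (-0.47, adjusted p = 0.270).

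**Figure D4:**
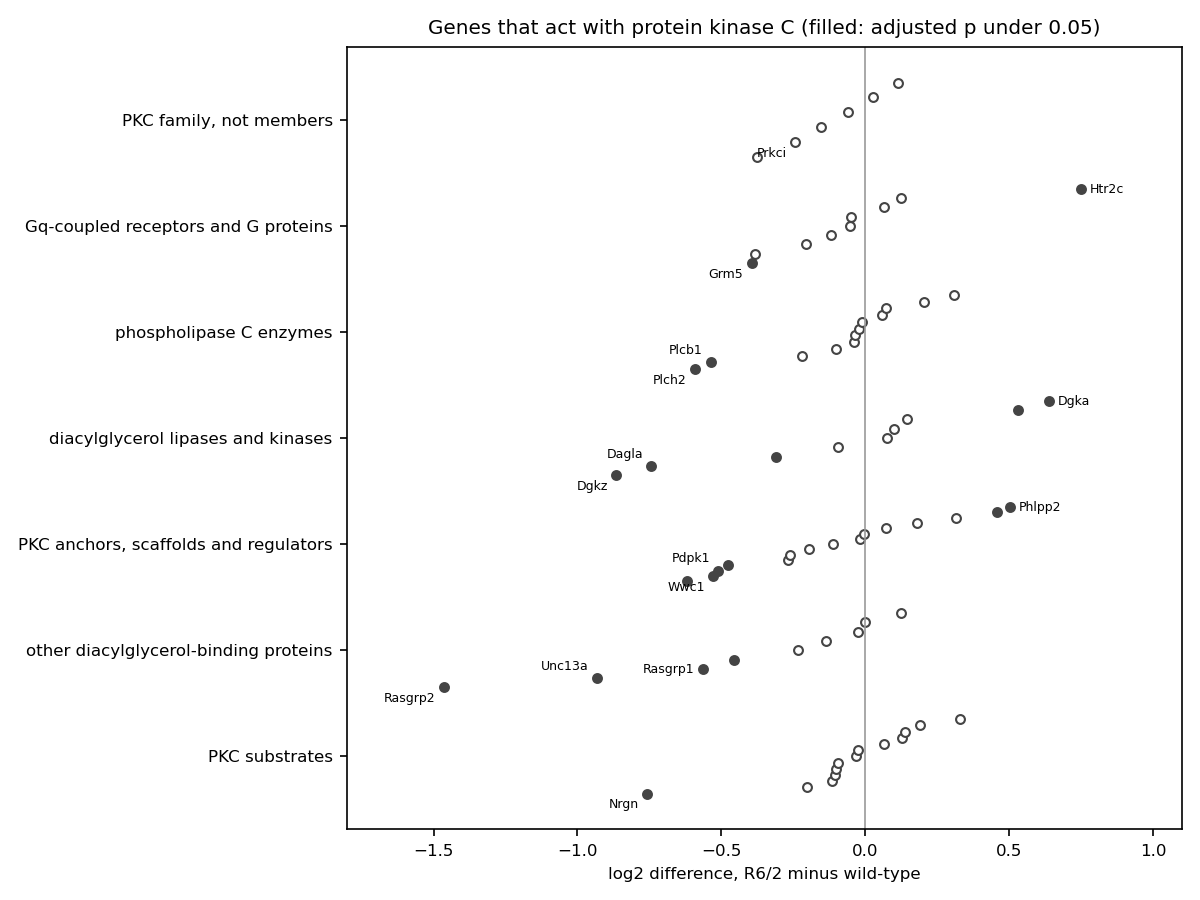
Log2 difference, R6/2 minus wild-type, of each measured gene in 7 lists of PKC family members, partners and substrates, with 1 point per gene, spread vertically for legibility and filled where the adjusted p of the gene fit was under 0.05. Rasgrp2 lies lowest at -1.47 and Htr2c highest at 0.75, and the PKC family list has no filled point.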

How the data were processed

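Total RNA from the striatum of each mouse was biotin-labelled and put on 1 Affymetrix array, per the labels' protocols. The authors deposited log2 levels, 1 for each probe set and array, made by RMA (affy) per the submitters' processing notes, where no version is given. RMA corrects background, brings arrays to a common scale and combines a set's probes, so differences are relative to the bulk of probe sets. The arrays had medians of 5.08 to 5.13 and correlated at 0.983 to 0.994, and their number limits the precision. Of the 5 wild-type mice in the design text, 1 is not analysed here. The labels do not say whether litters or days were shared, so p-values measure only the spread between these mice.

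Groups came from the sample titles. Of the 45037 probe sets left after 64 controls, 34945 had 1 gene symbol in the platform annotation, 932 had several and stay unnamed, and 9160 were absent from it. By Entrez ID, 34741 matched RefSeq genes of GRCm38.p6. Positions are of the genes and not of the probes.

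The main test was limma 3.58.1 in R 4.3.3 (linear model, eBayes, constant prior) over all probe sets, and over 18193 genes by the probe set with the highest mean. Benjamini-Hochberg adjustment ran over all features of a fit, and a call is an adjusted p under 0.05. The scripts were tested on simulated data. Unequal change was tested by exact 2-sided permutation of the 8 arrays. The members and gene lists were chosen with earlier results of these data known. Named were every PKC probe set, up to 3 called genes per pathway list by adjusted p (or the brightest where none was called), and the 3 genes nearest to each PKC gene that was called or spanned over 1 log2 unit. Dgkh, Dgke, Akap5, Akap9, Sqstm1 and Chn1 were named after their values were seen. Alternatives were quantile normalization, median centring, and leaving out the dimmest 40% of probe sets or shared-probe (_s_at, _x_at, _a_at) sets. Others were trended robust variance moderation, array weights, gene means, a cortical marker covariate, and each array left out. A further setting, meant to switch variance moderation off, repeated the main fit exactly and so tests nothing.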

Additional observations from a re-analysis of the deposited data

Results flagged for a closer look

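Values of each PKC probe set and each marker score were screened within each group of 4 mice for 1 value far from the rest (gap to the nearest over the whole range above 0.829). Of 58 groups checked, 3 stood out, and chance alone gives about 1 in 20. Prkcd probe set 1422847_a_at read 8.04 in wild-type mouse 63, with the nearest wild-type value at 5.89 (gap over range 0.929). Prkca probe set 1427562_a_at read 3.95 in R6/2 mouse 70, with the nearest R6/2 value at 4.29 (0.860). The thalamic marker score was -0.23 in R6/2 mouse 64, with the nearest R6/2 value at -0.37 (0.906).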

How the results depend on the processing

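Of 1035 alternative values of 68 results, 893 were classed as the same. For a tested difference this means the same direction and side of the threshold, and for a count a value near the main one. Of the rest, 65 lost a call, 12 gained one, 16 changed sign and 49 counts moved. The setting that repeated the main fit is among the 1035, so the 893 overstate the agreement. No paired analysis was possible because the groups share no mouse numbers. Quantile normalization left 0 PKC probe sets called higher and Prkcq at 0.39, and leaving out shared-probe sets, Prkcq's among them, also left 0. Prkce passed at -0.37 without dim probe sets and with trended robust moderation, and at -0.38 with array weights, which gave 8 PKC probe sets lower. The cortical covariate left 2 lower and 0 higher, with Prkca at -0.36 and Prkcq at 0.30, and 1525 probe sets and 1253 genes called in all. Signs turned for Prkca 1437393_at minus 1450945_at (0.021, quantile), Prkch 1422079_at (-0.034 with array weights, -0.20 with the covariate) and Prkcd 1442256_at (0.017, covariate). Prkci, at 0.12 without shared-probe sets, is also counted as a change of sign. There its brightest probe set was left out and its second took its place, so no Prkci probe set turned.

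Leaving out 1 array gave 2650 to 4262 probe sets and 1679 to 2545 genes called, and 2 to 6 PKC probe sets lower and 0 to 1 higher. Differences ranged from -0.47 to -0.34 for Prkca, -0.44 to -0.31 for Prkce and 0.34 to 0.51 for Prkcq. Prkcb minus another gene ranged from -0.38 to -0.29 (Prkca), -0.64 to 0.20 (Prkcd), -0.41 to -0.28 (Prkce), -0.61 to -0.43 (Prkch), -1.28 to -1.08 (Prkcq) and -0.72 to -0.63 (Prkcz). Of these, the range of Prkcb minus Prkcd crossed 0. Other ranges that crossed 0 were -0.061 to 0.17 (Prkch 1422079_at), -0.13 to 0.095 (Prkca 1437393_at minus 1450945_at), -0.064 to 0.29 (Prkcb 1460419_a_at minus 1443144_at) and -0.075 to 0.0019 (Prkce 1437861_s_at minus 1449956_at). The cause was not tested. Alternatives were not run for Dgkh, Dgke, Akap5, Akap9, Sqstm1 and Chn1, and for the PKC genes over genes only the mean of all probe sets was run, by which Prkca (-0.30), Prkcb (-0.79) and Prkcq (0.42) passed and Prkce (-0.26) and Prkcz (-0.25) did not. Dim probe sets, such as Prkce 1437860_at within the Y-linked range, give no usable difference.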
